A study of Mus musculus with 12 samples.

Results

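The syndecans and glypicans are the main families of cell surface core proteins that carry heparan sulfate. All 10 mouse genes of the families were measured, the syndecans Sdc1 to Sdc4 and the glypicans Gpc1 to Gpc6, among 909 named genes and 1246 probe sets of a focused Affymetrix array. They were taken by name, through the RefSeq accession of the probe set, and each had 1 probe set. The arrays profiled RNA of melanoma tumours grown in mice, with 2 tumour lines crossed with 2 host genotypes and 3 arrays in each of the 4 groups. The groups were Tm1N3 tumours of knockout hosts, Tm1G3 tumours of knockout hosts, Tm1N3 tumours of wild-type hosts and Tm1G3 tumours of wild-type hosts. Tm1N3 is labelled as expressing galectin-3 and Tm1G3 as silenced for it, and the knockout hosts are Gal3 -/- mice, which lack the lectin galectin-3. The series describes a melanoma line that had silenced its own galectin-3 gene, a coding plasmid used for overexpression, and syngeneic hosts. The vector, the number of clones behind each line, and the age, sex and strain of the mice are not given in the sources used here. The labels do not say whether each replicate was a separate animal, so p-values measure the spread between these samples, which may in part be technical.

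Heparan sulfate is a long sulfated sugar chain that binds growth factors, chemokines and matrix proteins and helps present them to their receptors. Syndecans span the membrane, bear their chains far from it and reach the cytoskeleton through a short cytoplasmic tail. Glypicans are held to the membrane by a glycosylphosphatidylinositol anchor, bear their chains close to it and regulate Wnt, Hedgehog, FGF and BMP signals. In melanoma, where both tumour cells and stroma make these proteins, they have been studied in adhesion, migration and growth factor response.

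The arrays were alike, and any 2 of them correlated at 0.976 to 0.998 over probe sets (Pearson). The Lgals3 probe set averaged 9.86 ± 0.62 in Tm1N3 and 9.31 ± 0.43 in Tm1G3 tumours of knockout hosts, and 9.97 ± 0.37 in Tm1N3 and 9.61 ± 0.34 in Tm1G3 tumours of wild-type hosts (log2 level, SD, n = 3 each). No difference in Lgals3 between lines or hosts passed the test, and the place of the probe set in the knocked-out gene is not given, so these values do not check the labels. An exchange of the names Tm1N3 and Tm1G3 at deposit cannot be told from these data, and would turn the galectin-3 reading of every line difference below. Of 9 melanocyte markers listed for this work, Kit and Mcam had a named probe set, which is too few to check the tumour type. Values below are log2 levels after RMA, the authors' normalization. In this bulk tissue, fewer cells of a type and less RNA per cell cannot be told apart. Probe sets differ in how brightly they bind, so levels are compared between samples and never between genes.

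The tumour line comparison asks what differs between tumours of the line labelled as expressing galectin-3 and those of the line labelled as silenced for it. Averaged over hosts, 2 of the 10 core protein genes were lower in Tm1N3 tumours, the syndecan gene Sdc2 (1.43-fold) and the glypican gene Gpc6 (1.33-fold), and none was higher. A gene was called where its Benjamini-Hochberg adjusted p over all 1246 probe sets was under 0.05 in limma. By that rule 4.25% of all probe sets were called in this comparison, against 20% of the core protein genes, and 2.97% of all probe sets were called lower. The calls over all probe sets were 37 lower and 16 higher, and 28 lower and 29 higher after the deposited values were quantile normalized again. At an unadjusted p under 0.05, 5 of the 10 genes stood out, Sdc1, Sdc2, Sdc4, Gpc2 and Gpc6, where 16.4% of all probe sets did. The median difference was -0.24 over the 4 syndecans and -0.01 over the 6 glypicans, beside a median of 0.00 over all probe sets.

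**Figure D1:**
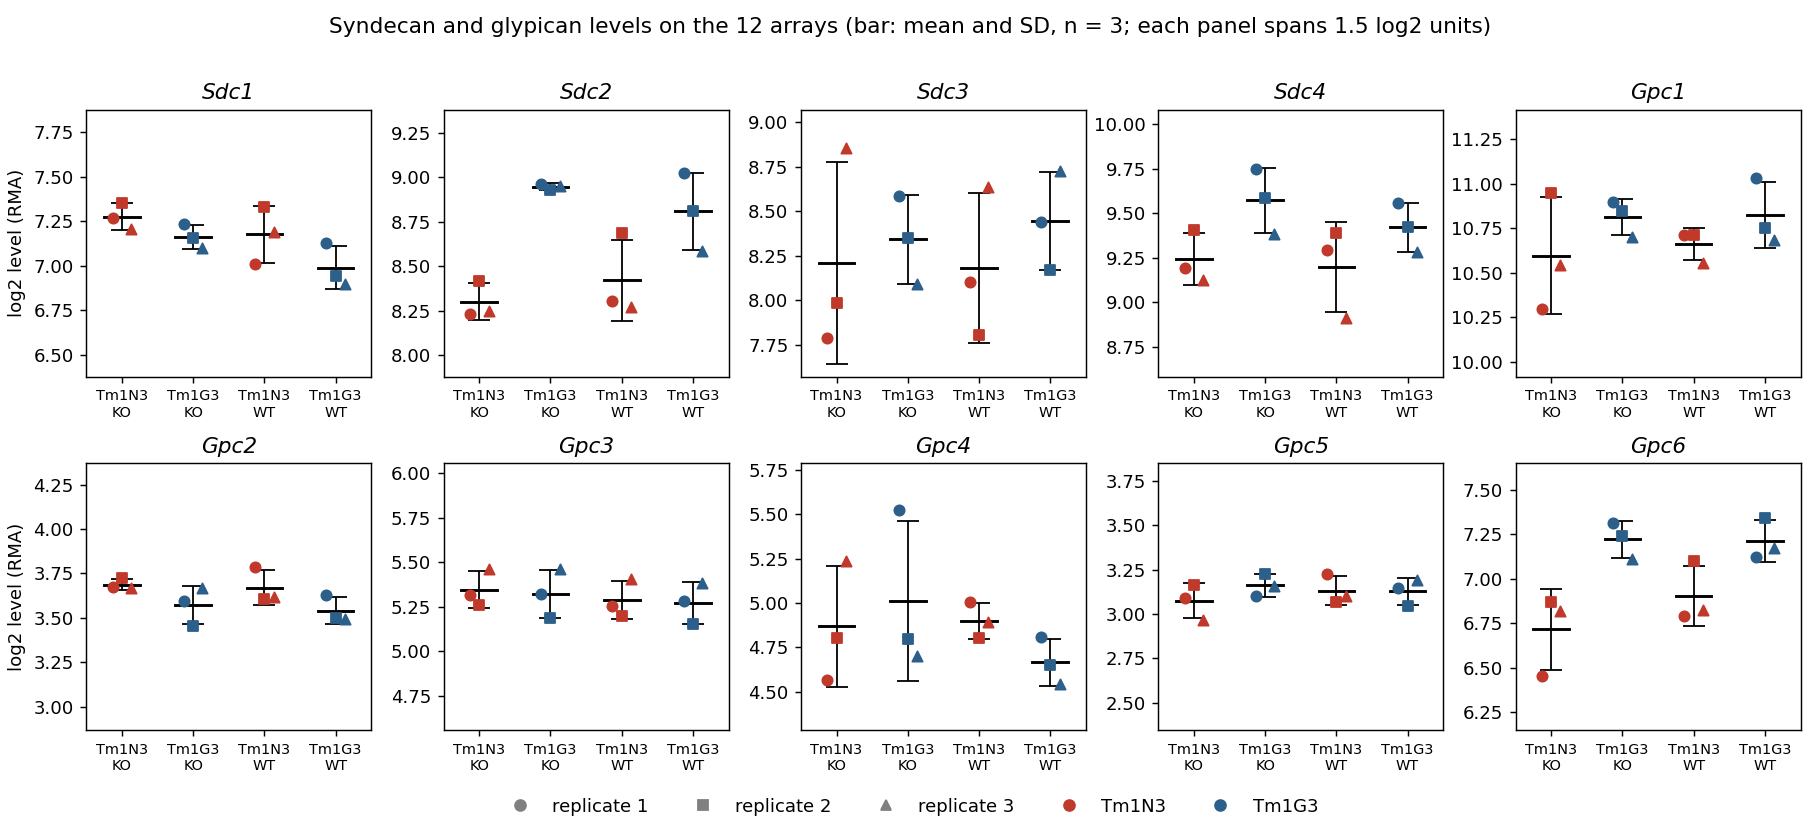
The log2 level of each of the 10 genes on every array is plotted by tumour line and host (KO, Gal3 -/- hosts, and WT, wild-type hosts), with the symbol showing the replicate number and bars the mean and SD of 3 arrays. Sdc2 and Gpc6 sit lower in the Tm1N3 groups, with some overlap for Sdc2, while Sdc3 and Gpc4 spread widely within groups.

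Sdc2 encodes syndecan-2, a syndecan of mesenchymal and endothelial cells that takes part in the assembly of fibronectin matrix. In knockout hosts its level was 8.23, 8.42 and 8.25 in Tm1N3 tumours, against 8.96, 8.93 and 8.95 in Tm1G3 tumours. In wild-type hosts it was 8.31, 8.69 and 8.27 in Tm1N3 tumours, against 9.02, 8.81 and 8.59 in Tm1G3 tumours. The lines lay apart in knockout hosts, where the 3 Tm1G3 arrays were within 0.04 of each other. In wild-type hosts they overlapped, because replicate 2 of the Tm1N3 tumours was above replicate 3 of the Tm1G3 tumours. Averaged over hosts, Sdc2 fell by 0.52 on the log2 scale in Tm1N3 tumours (SE 0.09, 95% interval from -0.72 to -0.32, limma, adjusted p = 0.00920). The call held with any 1 of the 12 arrays left out, at differences from -0.58 to -0.46.

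Within single hosts the Sdc2 difference was -0.65 ± 0.13 in knockout hosts and -0.39 ± 0.13 in wild-type hosts (SE). Neither passed over all probe sets (limma, adjusted p = 0.0534 and 0.185, unadjusted p = 0.000428 and 0.0119). In knockout hosts the call turned on the fit, and Sdc2 passed when only the 6 arrays of those hosts were fitted (limma, adjusted p = 0.0300). It also passed without replicate 2 of the Tm1N3 tumours of wild-type hosts (0.0217), and without replicate 1 (0.0290) or replicate 3 (0.0431) of the Tm1G3 tumours of wild-type hosts. These arrays enter the knockout comparison only through the shared estimate of spread. The 2 hosts' differences were not shown to differ, with an interaction of -0.26 and a 95% interval from -0.66 to 0.14.

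Sdc4 encodes syndecan-4, a component of focal adhesions that signals through protein kinase C alpha. In knockout hosts its level was 9.19, 9.41 and 9.12 in Tm1N3 tumours, against 9.75, 9.59 and 9.39 in Tm1G3 tumours. In wild-type hosts it was 9.29, 9.39 and 8.91 in Tm1N3 tumours, against 9.56, 9.42 and 9.28 in Tm1G3 tumours. The means were lower in Tm1N3 tumours of both hosts and the lines overlapped in both. Averaged over hosts the Sdc4 difference was -0.28 ± 0.10 (SE), with a 95% interval from -0.50 to -0.06, and it did not pass over all probe sets (limma, adjusted p = 0.171).

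Sdc1 encodes syndecan-1, the syndecan of epithelia and plasma cells, and was the syndecan with a positive line difference. In knockout hosts its level was 7.27, 7.35 and 7.21 in Tm1N3 tumours, against 7.23, 7.16 and 7.10 in Tm1G3 tumours. In wild-type hosts it was 7.01, 7.33 and 7.19 in Tm1N3 tumours, against 7.13, 6.94 and 6.90 in Tm1G3 tumours. The averaged difference of 0.15 ± 0.07 (SE) did not pass (limma, adjusted p = 0.276). Of the marker lists for cells known for Sdc1, no epithelial marker had a named probe set, and the 1 plasma and B cell marker that did, Cd22, differed by -0.02 between the lines.

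Sdc3 encodes syndecan-3, best known from nervous tissue, and was the most variable of the 10 genes. Its level ran from 7.79 to 8.86 with a median of 8.04 in Tm1N3 tumours and from 8.09 to 8.73 with a median of 8.40 in Tm1G3 tumours. Its pooled SD within groups was 0.40, above that of 93.7% of all probe sets. The line difference of -0.20 had a 95% interval from -0.65 to 0.25, so a change of the size seen for Sdc2 could not be told from none. It was -0.36 without replicate 3 and -0.09 without replicate 1 of the Tm1N3 tumours of knockout hosts.

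The high and low Sdc3 arrays were spread over groups. The 3 highest were replicate 3 of the Tm1N3 tumours of knockout hosts (8.86), replicate 3 of the Tm1G3 tumours of wild-type hosts (8.73) and replicate 3 of the Tm1N3 tumours of wild-type hosts (8.64). The lowest was replicate 1 of the Tm1N3 tumours of knockout hosts (7.79). The mean level of 5 macrophage markers (Csf1r, Adgre1, Mrc1, Siglec1 and Clec10a) moved with it, at 7.98, 7.59 and 7.78 on those 3 arrays and 6.27 on the last, which were the highest, the fourth, the second and the lowest of the 12. The mean of 5 fibroblast markers (Pdgfra, Pdgfrb, Dcn, Lum and Fbln5) was 7.60, 7.05 and 7.50 on the 3 arrays and 6.14 on the last. Other lists moved likewise, so the pattern was not particular to macrophages and fibroblasts. In the same order, 4 endothelial markers averaged 9.11, 8.80, 9.01 and 8.25, and 3 neutrophil markers 4.70, 4.45, 4.63 and 4.32. The 2 melanocyte markers averaged 8.09, 7.94, 8.06 and 7.53. Means of 5 T and NK cell markers were 3.82, 3.95, 3.88 and 3.83, and Cd22 was at 5.94, 6.11, 5.85 and 5.83. The mean of 2 nerve and Schwann cell markers (L1cam and Mag) did not follow Sdc3, at 6.50, 6.17 and 6.25 on the 3 arrays, ranks 7, 12 and 10 of 12, and 6.17 on the last, rank 11. The part of any of these cell types in the Sdc3 levels was not tested.

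**Figure D2:**
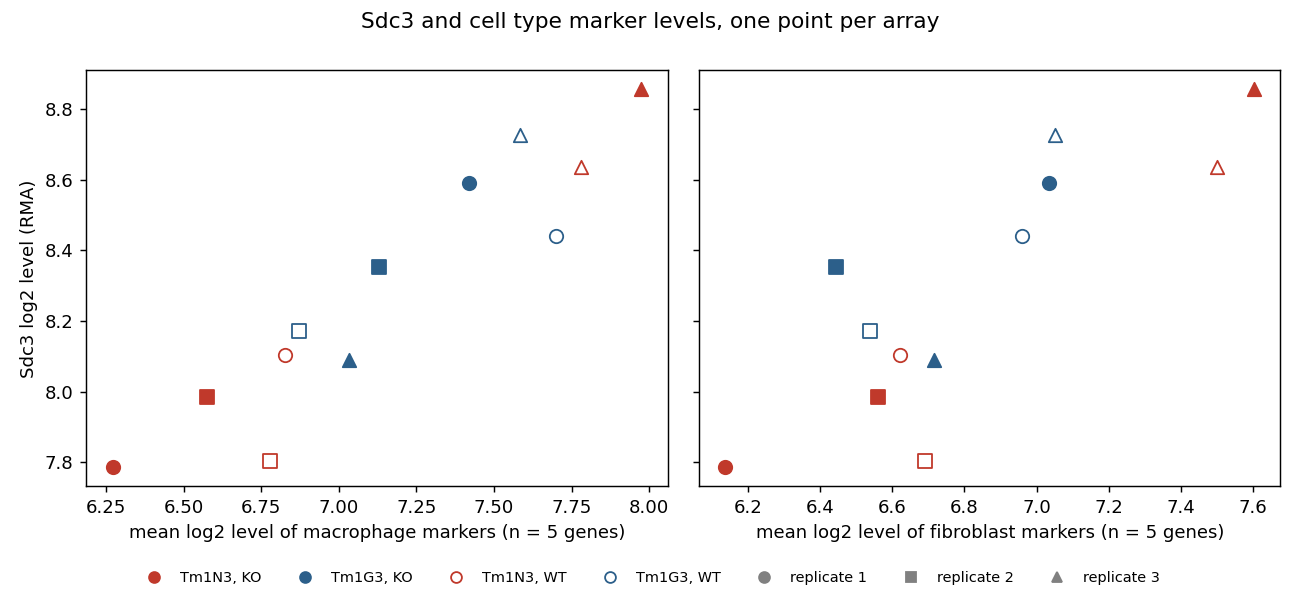
Each point is 1 array, with its Sdc3 log2 level against the mean log2 level of 5 macrophage markers (left) and 5 fibroblast markers (right), and colour, filling and symbol give line, host and replicate number. The array with the highest Sdc3 (8.86) had the highest mean of both lists, and the array with the lowest (7.79) the lowest of both.

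Of the glypicans, Gpc6 was the gene that differed between lines. Its product, glypican-6, is needed for limb growth in humans and promotes Hedgehog signalling in mice. In knockout hosts its level was 6.46, 6.87 and 6.82 in Tm1N3 tumours, against 7.31, 7.24 and 7.11 in Tm1G3 tumours. In wild-type hosts it was 6.79, 7.10 and 6.82 in Tm1N3 tumours, against 7.12, 7.34 and 7.17 in Tm1G3 tumours. All 6 Tm1N3 arrays lay below all 6 Tm1G3 arrays, by a gap of 0.01 at the nearest point, as the lines did in that direction for 2.09% of all probe sets. Averaged over hosts, Gpc6 fell by 0.41 on the log2 scale in Tm1N3 tumours (SE 0.09, 95% interval from -0.60 to -0.21, limma, adjusted p = 0.0235).

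The Gpc6 call lay near the threshold and held in 6 of the 12 fits that left out 1 array. It was lost without replicate 1 or 3 of the Tm1N3 tumours of wild-type hosts, replicate 2 or 3 of the Tm1G3 tumours of wild-type hosts, or replicate 1 or 2 of the Tm1G3 tumours of knockout hosts. The limma adjusted p was then 0.0637, 0.0583, 0.0629, 0.0558, 0.0527 and 0.0717, so that 1 of the 10 genes, Sdc2, was called. The difference itself stayed between -0.46 and -0.34 with any 1 array left out. After the deposited values were quantile normalized again it was -0.36 and did not pass (limma, adjusted p = 0.0532). Within hosts it was -0.51 ± 0.12 in knockout and -0.31 ± 0.12 in wild-type hosts (SE), and neither passed (limma, adjusted p = 0.0996 and 0.307). The suffix of the Gpc6 probe set stands for probes that more than a single transcript can bind, as does that of Gpc3, so its signal may hold related transcripts.

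Gpc1 encodes glypican-1, a co-receptor for FGF2 that is widely made by tumour cells. In knockout hosts its level was 10.30, 10.95 and 10.54 in Tm1N3 tumours, against 10.90, 10.85 and 10.70 in Tm1G3 tumours. In wild-type hosts it was 10.71, 10.71 and 10.56 in Tm1N3 tumours, against 11.03, 10.75 and 10.69 in Tm1G3 tumours. The means were lower in Tm1N3 tumours of both hosts, and the averaged difference of -0.19 had a 95% interval from -0.43 to 0.05 (limma, adjusted p = 0.439). For Gpc1 it was -0.12 without replicate 1 and -0.28 without replicate 2 of the Tm1N3 tumours of knockout hosts, and did not pass in either fit.

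Gpc4 encodes glypican-4, a regulator of Wnt signals in development. Its level ran from 4.57 to 5.24 with a median of 4.85 in Tm1N3 tumours and from 4.54 to 5.53 with a median of 4.75 in Tm1G3 tumours. The highest value, 5.53, was replicate 1 of the Tm1G3 tumours of knockout hosts, while the other two arrays of that group were at 4.80 and 4.70. The line difference was -0.14 in knockout and 0.23 in wild-type hosts, with intervals from -0.62 to 0.34 and from -0.24 to 0.71, and the averaged 0.05 did not pass (limma, adjusted p = 0.943).

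Gpc3, whose product glypican-3 restrains Hedgehog signalling and body growth in mice, was nearly level across groups. Its group means were 5.35 in Tm1N3 and 5.32 in Tm1G3 tumours of knockout hosts, and 5.29 in Tm1N3 and 5.27 in Tm1G3 tumours of wild-type hosts. The averaged line difference of 0.02 had a 95% interval from -0.13 to 0.17, which does not reach the difference seen for Sdc2 or Gpc6 in either direction.

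Gpc2, a glypican gene of the developing nervous system, and Gpc5 were dim, with mean levels at the 14.5 and 7.54 percentile of all probe sets. Gpc2 ran from 3.61 to 3.78 with a median of 3.67 in Tm1N3 tumours and from 3.45 to 3.67 with a median of 3.55 in Tm1G3 tumours. Its averaged difference of 0.12 ± 0.05 (SE) did not pass (limma, adjusted p = 0.280). Gpc5 ran from 2.97 to 3.22 with a median of 3.10 in Tm1N3 tumours and from 3.04 to 3.22 with a median of 3.15 in Tm1G3 tumours, and its averaged difference was -0.04 ± 0.05 (SE). Signal over background was not examined, so these levels may lie near the floor of the array.

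**Figure D3:**
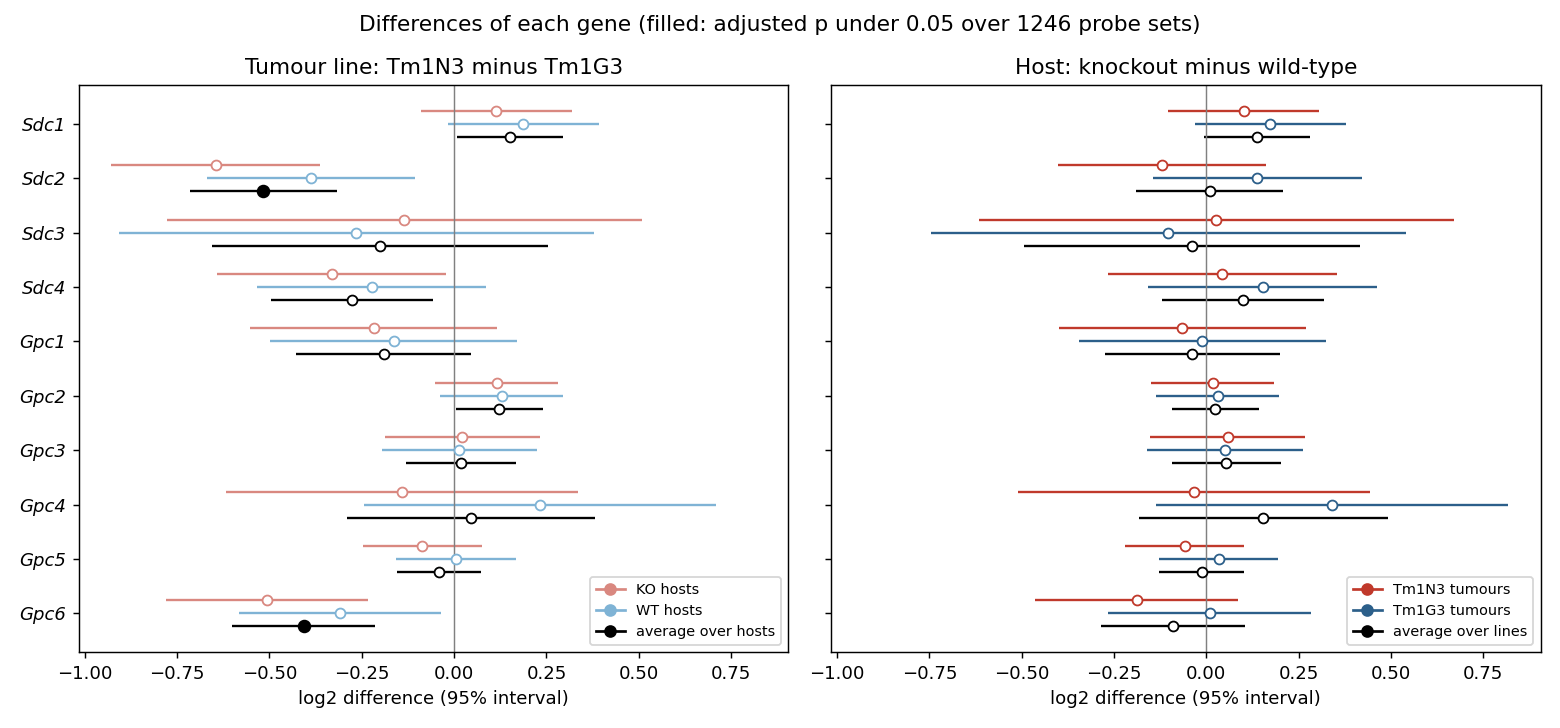
The log2 difference of each of the 10 genes is plotted with its 95% interval, Tm1N3 minus Tm1G3 on the left (in knockout hosts, wild-type hosts and averaged) and knockout minus wild-type hosts on the right (in each line and averaged). Filled points passed an adjusted p of 0.05 over 1246 probe sets: the averaged line differences of Sdc2 (-0.52) and Gpc6 (-0.41) and none of the host differences.

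In single hosts no core protein gene passed the line comparison, where 0.722% of all probe sets were called in knockout and 0.883% in wild-type hosts. In knockout hosts 3 of the 10 genes had an unadjusted limma p under 0.05, Sdc2, Sdc4 and Gpc6, all lower in Tm1N3 tumours, as 6.34% of all probe sets were by that rule. In wild-type hosts Sdc2 and Gpc6 had such a p, both lower in Tm1N3 tumours, as 6.58% of all probe sets were by that rule. Counting both directions, 9.47% of all probe sets had such a p in knockout and 13.1% in wild-type hosts. The Tm1N3 arrays lay below all Tm1G3 arrays for Sdc2 and Gpc6 in knockout hosts and for Gpc6 in wild-type hosts, as they did for 7.95% of all probe sets in knockout and 8.51% in wild-type hosts.

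A difference between 2 genes of an array does not change when a constant is added to that array, though it can change with quantile normalization. The log2 level of Sdc2 minus that of Sdc1 averaged 1.14 ± 0.15 in Tm1N3 tumours and 1.80 ± 0.08 in Tm1G3 tumours (SD, n = 6 each). The 6 Tm1N3 arrays ran from 0.97 to 1.35 and the 6 Tm1G3 arrays from 1.69 to 1.90. Gpc6 minus Sdc1 was -0.42 ± 0.22 in Tm1N3 tumours and 0.14 ± 0.16 in Tm1G3 tumours (SD, n = 6 each). Sdc2 minus Gpc6 overlapped between the lines, at 1.55 ± 0.13 in Tm1N3 and 1.66 ± 0.20 in Tm1G3 tumours. So did Sdc2 minus Sdc4, at -0.86 ± 0.15 in Tm1N3 and -0.62 ± 0.12 in Tm1G3 tumours. Set against the 9 other core protein genes, all Tm1N3 arrays lay below all Tm1G3 arrays in 2 pairs of Sdc2 (Sdc1 and Gpc2) and in 1 pair of Gpc6 (Sdc1). Against all 908 other named genes they did so for 24.7% with Sdc2 and 25.3% with Gpc6, so the shares among core proteins were no higher. These pairs were read after the line differences had been seen.

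The genes divided by how much of their variance over the 12 arrays lay between the lines. That share was 74.6% for Sdc2, 65.6% for Gpc6, 43.0% for Gpc2, 42.6% for Sdc4, 29.6% for Sdc1 and 24.9% for Gpc1. It was under 10% for Sdc3, Gpc3, Gpc4 and Gpc5, beside a median of 7.65% over all probe sets. The share between hosts was 24.5% for Sdc1 and from 0.0236% to 8.19% for the others, beside a median of 5.71%. Within groups lay 90.3% of the variance of Sdc3 and 91.6% of that of Gpc3.

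The host comparison asks what differs between tumours of Gal3 -/- and wild-type hosts. The numbers in the sample titles of all knockout hosts come before those of all wild-type hosts. Host genotype and whatever those numbers mark therefore cannot be told apart. None of the 10 genes passed in either line or on average, and none had an unadjusted limma p under 0.05. No probe set of the array was called in either line or on average (0%), while 4.33% had an unadjusted limma p under 0.05 in Tm1N3 tumours, 6.18% in Tm1G3 tumours and 6.26% on average. The largest averaged difference was that of Gpc4, at 0.15 with a 95% interval from -0.18 to 0.49. Without replicate 1 of the Tm1G3 tumours of knockout hosts, the array at 5.53, the Gpc4 difference was 0.03. The Sdc1 difference was next, at 0.14 from -0.01 to 0.28, with means of 7.22 ± 0.09 in knockout and 7.08 ± 0.16 in wild-type hosts (SD, n = 6 each). Sdc2 differed by 0.01 from -0.19 to 0.21 and Gpc6 by -0.09 from -0.28 to 0.10, intervals that leave out a host difference as large as the line difference of the same gene. The interval of Sdc3, from -0.49 to 0.42, was the widest of the 10. Hosts overlapped for all 10 genes in both lines, while they lay apart for 7.62% of all probe sets in Tm1N3 tumours and 12.4% in Tm1G3 tumours.

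No core protein gene and no other probe set (0%) was called for an interaction of line and host. None of the 10 had an unadjusted limma p under 0.05, where 2.81% of all probe sets did. The line difference was the lower one in knockout hosts for 8 of the 10 genes, as it was for 51.7% of all probe sets. The differences were -0.65 in knockout and -0.39 in wild-type hosts for Sdc2, -0.51 in knockout and -0.31 in wild-type hosts for Gpc6, and -0.33 in knockout and -0.22 in wild-type hosts for Sdc4. Adjusted p values for the interaction were 0.996 for each of the 10 genes in limma.

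The genes most like Sdc2 over the 12 arrays were St6gal1, a sialyltransferase gene, B4galt4, a galactosyltransferase gene, and Txndc12, a gene for a thioredoxin-like protein of the endoplasmic reticulum. Likeness was the root mean square difference of log2 levels, each gene centred on its own mean, among 908 named genes, and was 0.119, 0.125 and 0.126. The line difference of Sdc2 enters this measure, so the line differences of its nearest genes follow from the choice and are given as a description. They were -0.47 for St6gal1, -0.57 for B4galt4 and -0.38 for Txndc12. Gpc6 ranked seventh and Sdc4 ninth in likeness to Sdc2.

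The genes most like Gpc6 were Galns, which encodes a lysosomal sulfatase of keratan and chondroitin sulfate, Pgm2l1, which encodes a glucose bisphosphate synthase, and Ifngr2, an interferon gamma receptor chain gene, at 0.125, 0.129 and 0.130. Their line differences, which the choice likewise favours, were -0.33 for Galns, -0.29 for Pgm2l1 and -0.33 for Ifngr2. Sdc2 ranked ninth in likeness to Gpc6, and Gpc1 and Sdc4 followed at 20 and 21.

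The heparan sulfate chains of these core proteins are built and trimmed by enzymes that were listed by role and read in the same averaged line comparison. None of 10 measured genes of chain start and polymerisation passed, with Extl1 (-0.35 ± 0.10, SE) and Xylt1 (-0.15 ± 0.07) nearest. Of 15 genes of sulfation and epimerisation, Hs3st1, a heparan sulfate 3-O-sulfotransferase gene, rose and 14 did not pass. Hs3st1 ran from 5.29 to 7.07 on the 6 Tm1N3 arrays and from 4.25 to 4.65 on the 6 Tm1G3 arrays, a 3.70-fold difference (limma, adjusted p = 0.00320). Of 8 trimming and breakdown genes, Idua, which encodes the lysosomal iduronidase, rose (0.43 ± 0.09), Hpse, which encodes heparanase, fell (-0.46 ± 0.10), and 6 did not pass. Both calls were lost without replicate 2 of the Tm1G3 tumours of knockout hosts, replicate 2 of the Tm1N3 tumours of wild-type hosts, or replicate 2 or 3 of the Tm1G3 tumours of wild-type hosts. Without any 1 array the Idua difference stayed between 0.38 and 0.48, called in 6 of 12 fits, and the Hpse difference between -0.54 and -0.42, called in 5 of 12.

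None of 18 other proteoglycan core protein genes passed, with the brain proteoglycan gene Bcan (-0.28 ± 0.07, SE) and the TGF beta co-receptor gene Tgfbr3 (-0.48 ± 0.20) nearest. Bcan passed without replicate 1 of the Tm1G3 tumours of wild-type hosts (limma, adjusted p = 0.0275), and Tgfbr3 without replicate 3 of the Tm1N3 tumours of knockout hosts (0.0172). None of 13 genes of chondroitin and dermatan sulfate chains passed either, with Dsel (0.16 ± 0.09) and Chst15 (0.08 ± 0.05) nearest. The median line difference was -0.02 for chain start and polymerisation, 0.01 for sulfation and epimerisation, 0.11 for trimming and breakdown, and -0.00 for both the other core proteins and the chondroitin and dermatan sulfate genes.

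Of 25 heparan-binding growth factors and chemokines, the growth factor gene Fgf1 (-0.53 ± 0.09, SE) and the chemokine gene Ccl5 (-0.65 ± 0.12) fell in Tm1N3 tumours and 23 did not pass (limma, adjusted p = 0.00808 and 0.0113). The Fgf1 call was lost after quantile normalizing again (limma, adjusted p = 0.0547). Of 8 receptors that act with syndecans or glypicans none passed, with Fgfr3 (0.09 ± 0.04) and Fgfr1 (0.12 ± 0.07) nearest. None of the 12 genes listed as syndecan partners or shedding enzymes had a named probe set. No gene of these lists was called in a host comparison.

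**Figure D4:**
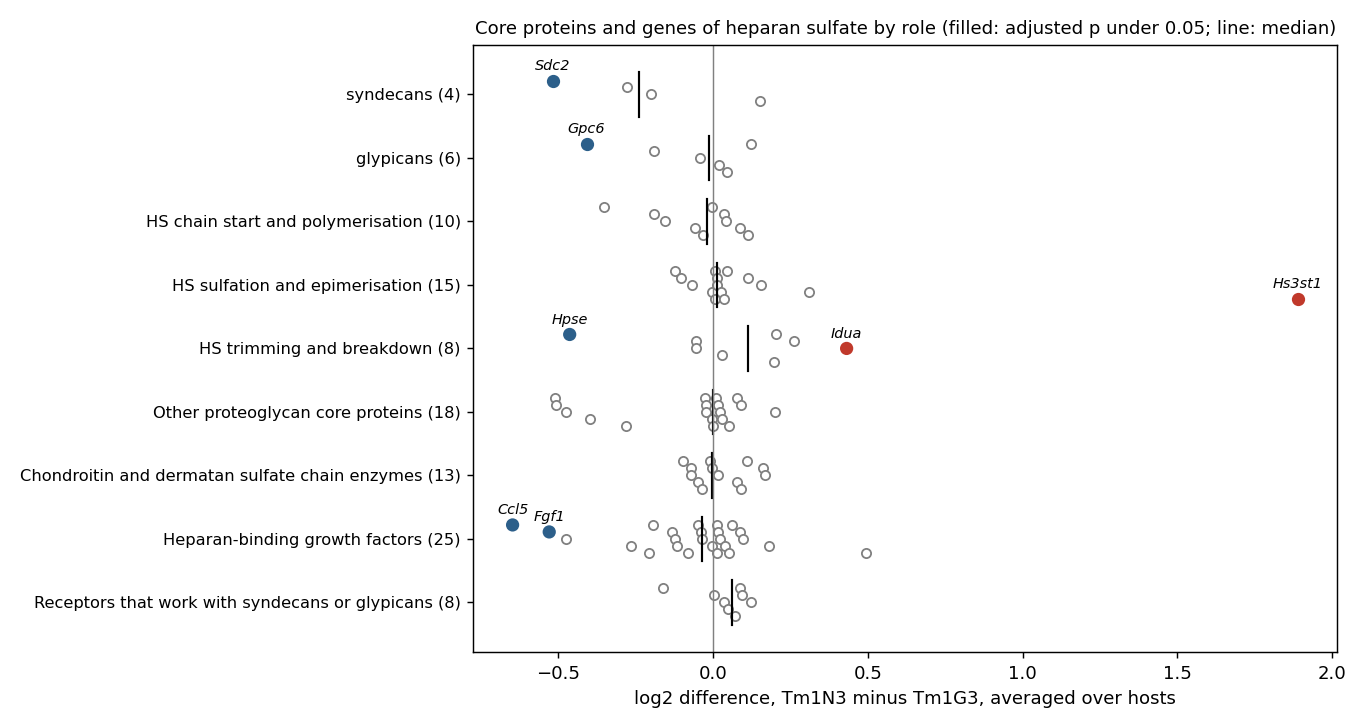
Each point is 1 gene, placed by its log2 difference, Tm1N3 minus Tm1G3 averaged over hosts, in rows by role with the number of measured genes, and the vertical bar is the median of the row. Filled, named points passed an adjusted p of 0.05 over 1246 probe sets: Sdc2, Gpc6, Hpse, Fgf1 and Ccl5 on the lower side and Hs3st1 and Idua on the higher side.

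Markers of cells that could carry these core proteins were read beside the line differences. The mean log2 level of 4 endothelial markers ran from 8.25 to 9.11 in Tm1N3 and from 8.47 to 9.27 in Tm1G3 tumours. Of these, Icam2 fell in Tm1N3 tumours (-0.40 ± 0.08, SE). The Icam2 call was lost without replicate 2 or 3 of the Tm1N3 tumours or replicate 3 of the Tm1G3 tumours of wild-type hosts. The rest of the list did not pass, with Pecam1 at -0.13 ± 0.18, Cd34 at 0.17 ± 0.21 and Emcn at 0.23 ± 0.20 (SE). The mean of 5 fibroblast markers ran from 6.14 to 7.60 in Tm1N3 and from 6.45 to 7.05 in Tm1G3 tumours. Among them 1, the elastic fibre gene Fbln5, rose (0.76 ± 0.12). The others did not pass, with Dcn at -0.51 ± 0.47, Lum at -0.002 ± 0.41, Pdgfrb at -0.002 ± 0.14 and Pdgfra at 0.06 ± 0.37 (SE). The mean of 5 macrophage markers ran from 6.27 to 7.98 in Tm1N3 and from 6.87 to 7.70 in Tm1G3 tumours, and none passed. Of the pair of melanocyte markers measured, Kit, the stem cell factor receptor gene, fell (-0.99 ± 0.15) and Mcam, an adhesion gene of melanoma and endothelium, rose (0.66 ± 0.15). Leaving out single arrays kept the Mcam call in 3 of 12 fits and the Kit call in all 12. Neither of 2 nerve and Schwann cell markers passed, and their mean ran from 6.17 to 6.61 in Tm1N3 and from 6.17 to 7.16 in Tm1G3 tumours. The 2 genes were unlike, with L1cam at -0.74 ± 0.26 (SE, limma, adjusted p = 0.171) and Mag at -0.03 ± 0.05. None of 3 neutrophil, 5 T and NK cell and 1 plasma and B cell markers passed. The part of any of these cells in the Sdc2 and Gpc6 differences was not tested.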

How the data were processed

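The authors deposited 1 table of log2 expression values for 1246 probe sets on 12 arrays. Per the submitters' processing notes they were made with RMA, which corrects background, quantile normalizes and summarises probes; the genome build is not given in the sources used. The deposited values ran from 2.14 to 13.9, with array medians within 0.0945 of each other, and no 2 arrays were identical. No depth applies, and 3 arrays in each of 4 groups limit precision.

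Probe sets were named by unversioned RefSeq accession through a mouse gene table of GRCm38.p6. Of 1246, 963 matched 1 symbol, and the brightest probe set stood for each gene. Groups came from the labels. Limma 3.58.1 (R 4.3.3, lmFit and eBayes) modelled the 4 groups' means over the 12 arrays, with 8 residual and 2.39 prior degrees of freedom and 7 contrasts, each adjusted by Benjamini-Hochberg over 1246 probe sets at 0.05. The procedure was tested on simulated data, whose settings and outcome are not given here, so that test adds no weight to the calls.

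The text names all 10 members, the 3 genes most like each called member, genes of the role lists that passed or, in lists with none, the 2 with the smallest p, and Lgals3. Members and lists were chosen with earlier results of these data known.

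Replicate numbers are shared between groups. Deviations of same-numbered arrays correlated from 0.184 to 0.752 between hosts of Tm1N3 and from 0.249 to 0.308 between hosts of Tm1G3 tumours, which by a rule of 0.1 for every pair counts as pairing of hosts within a line. Between lines the range was from -0.66 to 0.27 in knockout and from 0.01 to 0.54 in wild-type hosts, which does not. What a number marks is not given.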

Additional observations from a re-analysis of the deposited data

How the results depend on the processing

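Each result was recomputed after quantile normalizing again, centring each array on its median, leaving out the dimmest 25% of probe sets, averaging the probe sets of a gene, an intensity trend in the prior, fitting only the compared groups, 2 forms of replicate block, and leaving out each array. For the line difference averaged over hosts, the count of core protein genes called was 2. It was 1 after quantile normalizing again and 1 to 2 with 1 array left out. Sdc2 was called in all 19 alternatives and Gpc6 in 12. Averaging probe sets left the values of the 10 genes as they were, since each had 1 probe set. Some other alternatives changed the spread or the adjustment and not the difference, so the tally of 19 overstates how far the calls were tried. In knockout hosts the count was 0, against 1, always Sdc2, without the dimmest 25% (adjusted p = 0.0490) and 1 with only the compared groups, and it was 0 to 1 with 1 array left out. With the replicate number as a fixed block over all groups the counts were 2 averaged over hosts, 1 in knockout hosts (Sdc2, adjusted p = 0.0493) and 0 in every other comparison, and Sdc4 had an averaged adjusted p of 0.0528. With same-numbered arrays of a line as a random replicate block, the pairing that the host comparisons call for, the counts were 2 for the averaged line difference and 0 elsewhere, so the block changed no call among these 10 genes. Without 1 array the averaged line difference turned sign for Gpc3 (-0.0154 to 0.0524) and Gpc4 (-0.0462 to 0.175), neither of them called. All probe sets called in the averaged line comparison numbered 53, against 32 without replicate 2 of the Tm1G3 tumours of knockout hosts. In wild-type hosts 11 were called, against 6 after median centring, 3 with only the compared groups and 2 to 21 with 1 array left out. In knockout hosts 9 were called, against 4 with only the compared groups and as few as 5 with 1 array left out. Quantile normalizing again changed the division of averaged calls to 29 higher and 28 lower, from 16 higher and 37 lower, with a median of 0.01 over all probe sets, against 0.00. The cause of these changes was not tested. Signal over background was not examined, which limits the dim Gpc2 and Gpc5 most.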

Other observations

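The genes most like Sdc3 over the 12 arrays, by the same root mean square difference of centred log2 levels, were Csf2rb2, an interleukin-3 receptor subunit gene, Klrd1, which encodes an NK cell receptor chain, and Bmp1, a metalloproteinase gene that processes procollagen, at 0.127, 0.148 and 0.159. Their averaged line differences were -0.07, -0.15 and -0.10. They were read after the Sdc3 values had been seen.

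For some core protein genes the highest or the lowest array bore the same replicate number in every group. Gpc3 was highest on the array numbered 3 in all 4 groups, as were 1.93% of all probe sets, and lowest on the array numbered 2 in all 4. Sdc4 was lowest on the array numbered 3 in all 4 groups, as were 3.45% of all probe sets. Sdc3 was highest on the array numbered 3 in 3 of the 4 groups. Shares over all probe sets were not computed for the lowest array of Gpc3 or for the patterns in 3 of the 4 groups. The labels do not say what a replicate number stands for. Each sample title also bears a number of its own, which rises with the replicate number in every group. All such numbers of knockout hosts come before all those of wild-type hosts, and what they mark is not given.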
